A study of Mus musculus with 86 samples.

Results

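The 48 loci described here are intergenic piRNA loci that kept most of their RNA in *Btbd18* knockout mouse testes at postnatal day 18 (P18). The deposited count tables list 24276 features. In their naming, 100 piRNA loci go by a chromosome band plus a number (intergenic loci) and another 114 by the gene they lie in (genic loci). Counts of the 20 whole-testis RNA libraries were scaled to counts per M (CPM) of each library's total. A locus was kept where the log2 ratio of mean knockout CPM plus 0.1 to mean heterozygous CPM plus 0.1 at P18 was above -1. This left 48 of the 100 intergenic loci, called the P18-retained loci below, and 52 at or under the threshold, called the other intergenic loci. All 9 locus names that the rule leaves out were under the threshold, so leaving them out removed none. The loci were thus chosen by their P18 testis RNA values, and that comparison is given as a description. The names "retained" and "independent" refer to the P18 values and make no claim for other ages. Among the tested loci none was called at P10, and 11 were lower in knockouts at P14, against 0.906% of all features. At P28 3 were lower and 10 higher, against 25.1% and 25.7% of all features. The P14 calls rested on single libraries, as given below.

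PIWI-interacting RNAs (piRNAs) are small RNAs of the germline that bind PIWI proteins and silence transposons and other transcripts. Their loci are transcribed by RNA polymerase II into long single-stranded precursors, which are exported and cut into piRNAs on mitochondria and in cytoplasmic granules. In the mouse testis, pre-pachytene loci are active from spermatogonia on, and pachytene loci are switched on during meiosis under the transcription factor A-MYB, the product of *Mybl1*. The product of *Btbd18* is a nuclear protein with a BTB domain, and the study asked which loci need it. The tables carry no stage for the loci and no coordinates, so no sequence of a locus was read and levels are not corrected for locus length.

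All animals were of a C57BL/6 × 129/SvJ hybrid strain. Animals homozygous for the *Btbd18* knockout were compared with heterozygotes, which carry 1 mutated allele, and no wild-type group was used here. Poly(A) RNA of whole testes was counted at P10 (3 heterozygous, 3 knockout libraries), P14 (2 and 2), P18 (3 and 3) and P28 (2 and 2). Purified spermatocytes and round spermatids of 4-month-old animals gave 3 libraries per genotype each. Small RNA of testes was counted at P10 (2 and 2), P14 (2 and 2) and P18 (3 and 3). A further set, piRNA-enriched by its labels, with "beta" in its titles and the enrichment step not described, was counted at the same ages (2 and 2 each). Separate animals are not named for the libraries of a group. The p-values therefore cover library-to-library spread, which may be technical.

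The purified cells gave the shallowest libraries, with totals in M (mega) counts of 0.322 to 0.514 for spermatocytes and 0.194 to 0.543 for round spermatids. Whole-testis RNA-seq totals lay between 5.82 and 12.3 M, small RNA totals between 4.03 and 20.3 M, and totals after piRNA enrichment between 2.50 and 16.5 M. Levels below are scaled CPM, counts per M of the library size after scaling by trimmed mean of M-values (TMM). *Btbd18* was at 7.50 to 18.4 in heterozygous and 1.62 to 4.22 in knockout testis libraries. Its log2 change passed the test at each age, from -3.13 ± 0.21 (SE; adjusted p = 2.9e-08) at P14 to -1.90 ± 0.18 (adjusted p = 7.7e-07) at P18. Purified cells had 0 to 3 *Btbd18* counts per library, so the gene checks no label there. Some libraries stood apart from their group by the share of all counts on the other intergenic loci. At P10 that share was 0.071% and 2.95% in piRNA-enriched heterozygous replicates 1 and 2, and 0.051% and 0.058% in the knockout libraries. At P14 that share was 20.5% and 68.8% in the 2 heterozygous small RNA libraries, and 42.4% and 79.8% in the 2 piRNA-enriched ones. At P18 the piRNA-enriched library labelled knockout replicate 1 had 72.1%, knockout replicate 2 had 16.2%, and the heterozygous libraries had 81.7% and 82.8%. The knockout libraries labelled round spermatids were low in round spermatid markers, as given with their results.

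In the P18 testes that chose the loci, the log2 ratio over the 48 loci ran from -0.89 to 0.82 with a median of -0.05, and 40 of the 48 lay within 0.5 of 0. The other intergenic loci ran from -8.73 to -1.07 with a median of -3.97. The highest ratios were 0.82 at 1-qD-4525, 0.60 at 4-qD3-2082 and 0.56 at 10-qA3-2592. Just inside the threshold stood 6-qF3-3040 (-0.72, from 219 to 133 CPM of total counts), 9-qF4-150 (-0.76, from 13.6 to 8.0) and 17-qA3.3-352 (-0.89, from 309 to 167). Just outside stood 4-qD2.2-2182 (-1.07, from 29.3 to 13.9), 1-qE3-706 (-1.31, from 66.5 to 26.8) and 11-qB1.3-590 (-1.54, from 153 to 52.6). One retained locus, 1-qE2.3-2, had no count in any of the 5 tables and met the rule only through the added 0.1. Fitted with edgeR's quasi-likelihood test, this comparison called 0 of the loci higher (0.355% of all features) and 5 lower (3.07%). Since the rule used this contrast, nothing is read from those counts.

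**Figure D1:**
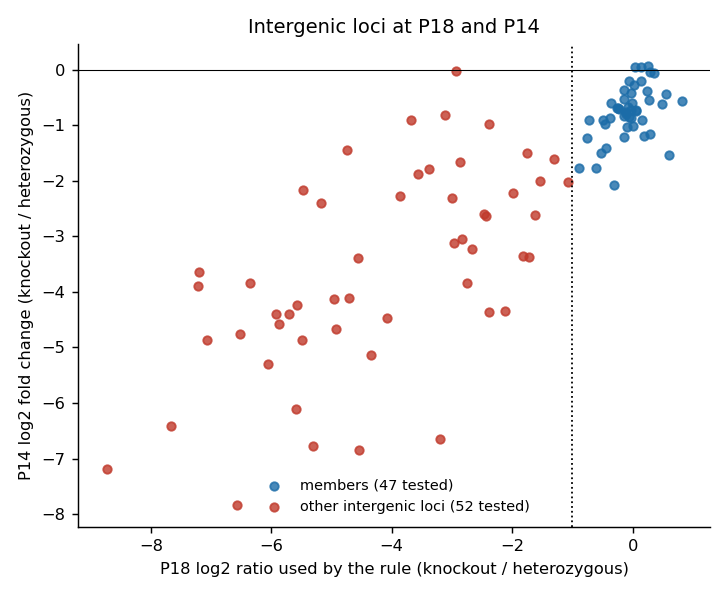
Each point is an intergenic locus tested at P14. The horizontal axis is the log2 ratio of knockout to heterozygous testis RNA at P18 that chose the loci, with a dotted line at the threshold of -1, and the vertical axis is the fitted log2 fold change at P14. The 47 tested P18-retained loci (blue) have a P14 median of -0.73, and the 52 other intergenic loci (red) one of -3.52.

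RNA over most P18-retained loci was low at P10 and rose by P14 in heterozygous testes. Of the 47 loci that passed the low-count filter (all but 1-qE2.3-2), 40 rose and 2 fell (edgeR's quasi-likelihood test with Benjamini-Hochberg adjusted p below 0.05), against 28.6% and 25.4% of all features. The fitted median log2 change was 5.17, against 0.01 over all 16334 features tested. With the 9 loci that had no P10 count set at their lower bound (3 counts over the group), the median was 4.43. Among the other intergenic loci 51 of 52 rose, and among 108 genic loci 14 rose and 56 fell.

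For 7-qB5-6255 the P10 heterozygous libraries had 0.27, 0 and 0.12 scaled CPM and the P14 libraries 105 and 80.2, a log2 change of 9.33 ± 0.46 (SE; adjusted p = 6.7e-12). At 13-qB1-1517 the P10 values were 0.95, 1.29 and 2.35 and the P14 values 91.1 and 72.8, a log2 change of 5.71 ± 0.29 (adjusted p = 8.8e-12). At both loci each P14 library was above every P10 library. For loci with no P10 count a bound replaces the fold, which was at least 580-fold at 4-qB3-3994, at least 387-fold at 2-qF1-2536 and at least 317-fold at 17-qA3.3-352.

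The 2 loci that fell were those already high at P10. Of the 48 loci 19 averaged 1 scaled CPM or more at P10, and 2 averaged 100 or more, 7-qD2-40 and 2-qE5-4. At 7-qD2-40 the P10 heterozygous libraries had 205, 244 and 226 scaled CPM and the P14 libraries 119 and 115, a fall of 0.94 ± 0.08 on the log2 scale (adjusted p = 1.4e-08). At 2-qE5-4 they had 122, 144 and 144 at P10 and 47.4 and 51.9 at P14, a fall of 1.46 ± 0.14 (adjusted p = 3.9e-08). The P10 and P14 libraries did not overlap at either locus. A few other loci moved little in this interval, such as 13-qA5-156, with 8.11, 6.57 and 6.56 at P10 and 9.76 and 9.31 at P14 (log2 change 0.43 ± 0.20, adjusted p = 0.069).

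In knockout testes most loci also rose between P10 and P14. There 38 loci rose, against 22.5% of all features, and 2 fell, against 19.9%. All 38 were among the 40 that rose in heterozygous testes, and the 2 that fell were again 7-qD2-40 and 2-qE5-4. The fitted median was 3.98, or 2.71 with 7 loci at their bound and 1 without a fold left out. Whether the size of the rise differed between genotypes was not tested for these ages. At 7-qB5-6255 the knockout libraries had 0, 0 and 0.13 scaled CPM at P10 and 34.5 and 20.3 at P14. The P14 knockout values were thus above the P10 values of both genotypes and below the P14 heterozygous ones.

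**Figure D2:**
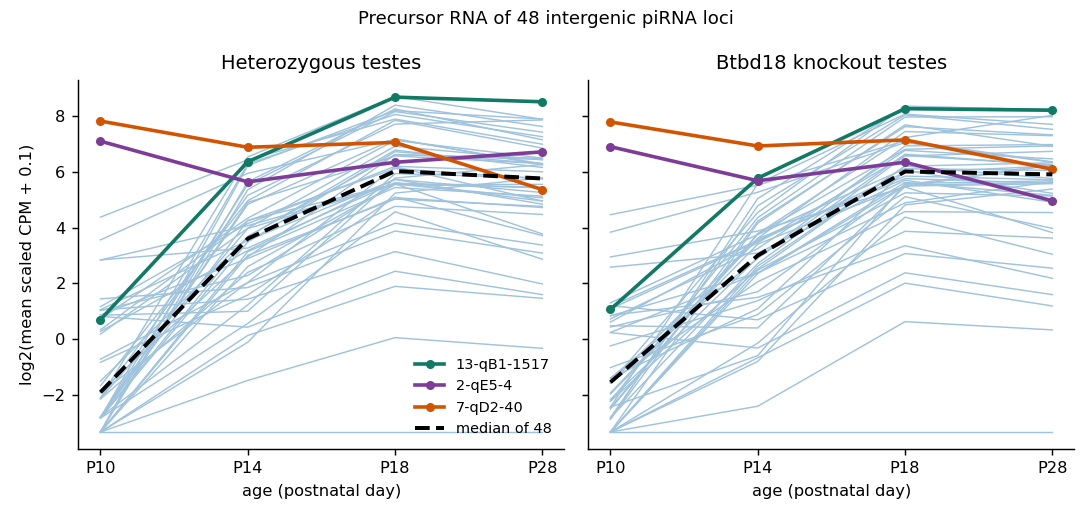
Group means of the 48 P18-retained loci in whole testes by age (horizontal axis, P10 to P28) for heterozygous and knockout libraries in separate panels, as log2 of mean scaled CPM plus 0.1. Thin lines are loci and the dashed line is the median of the 48. The coloured line of 13-qB1-1517 rises with most loci, while those of 7-qD2-40 and 2-qE5-4 start high at P10 and fall by P14.

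From P14 to P28 in heterozygous testes 42 loci rose, against 38.1% of all features, and 1 fell, against 37.0%. The median log2 change was 1.77, against -0.05 over all features. With library sizes taken from total counts, the median of all features was -0.64 and that of the loci 1.18. Then 37 loci rose, against 28.1% of all features, and 2 fell, against 54.7%. The median of the loci stood 1.82 above that of all features with either scaling. The locus that fell with TMM was 7-qD2-40, at 40.4 and 41.6 scaled CPM at P28 (log2 change -1.52 ± 0.10, adjusted p = 2e-11). In contrast 2-qE5-4 rose again, to 112 and 97.3 (log2 change 1.08 ± 0.15, adjusted p = 2e-06). A late rise was seen at 13-qA3.1-355, which had 1.49 to 1.93 at P10, 2.23 and 1.58 at P14 and 78.0 and 75.1 at P28 (log2 change from P14 to P28 5.32 ± 0.29, adjusted p = 1.4e-12).

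The genotypes were first compared at P10. None of the 47 tested loci passed edgeR's test at that age. At an unadjusted threshold of 0.05 there was 1 (1-qC1.3-637), and DESeq2 called 0 as well. Over all features 0.0% were higher and 0.00612% lower. The loci that were high at this age lay within each other's range. At 7-qD2-40 the heterozygous libraries had 205, 244 and 226 scaled CPM and the knockout libraries 207, 222 and 232. At 2-qE5-4 they had 122, 144 and 144 against 125, 119 and 113. The genotypes overlapped at both loci.

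By P14 knockout testes had less RNA over part of the P18-retained loci. Of 47 loci 0 were higher and 11 were lower, against 0.0857% and 0.906% of all features, and 44 of 47 log2 changes were below 0. The loci were measured in the same libraries, so these signs are not independent of each other. The median was -0.73, against -0.01 over all features. These 11 loci were 7-qB5-6255, 2-qF1-2536, 17-qA3.3-352, 7-qF3-3125, 6-qF3-3040, 1-qD-2017, 3-qA3-2052, 6-qC3-6258, 11-qE1-3997, 6-qF3-1063 and 4-qB3-3994. Among the other intergenic loci 45 of 52 were lower, with a median of -3.52, and among genic loci 2 of 108. The retained loci as a whole took 0.143% and 0.115% of counts in the heterozygous libraries and 0.093% and 0.069% in the knockout libraries.

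At 7-qB5-6255 the heterozygous libraries had 105 and 80.2 scaled CPM and the knockout libraries 34.5 and 20.3, a fall of 1.77 ± 0.23 on the log2 scale (SE; adjusted p = 0.00011). At 2-qF1-2536 they had 58.3 and 41.3 against 20.9 and 14.7, a fall of 1.5 ± 0.20 (adjusted p = 0.00076). For 17-qA3.3-352, the locus nearest to the P18 threshold, the values were 49.9 and 31.7 against 15.3 and 9.05, a fall of 1.77 ± 0.27 (adjusted p = 0.0016). In each case both knockout libraries lay below both heterozygous ones. The same held at 6-qF3-3040, with 92.6 and 79.3 against 43.2 and 48.2 (fall of 0.91 ± 0.16, adjusted p = 0.0047). At 1-qD-2017 the values were 41.7 and 29.3 against 19.7 and 7.68 (fall of 1.41 ± 0.26, adjusted p = 0.0065). At 7-qF3-3125 they were 35.0 and 24.6 against 16.3 and 10.7 (fall of 1.15 ± 0.20, adjusted p = 0.0034). At these loci too the genotypes did not overlap.

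Other loci with many counts did not pass. The 8 retained loci with the highest P14 heterozygous means, on a scale not corrected for locus length, were 7-qD2-40, 7-qB5-6255, 6-qF3-3040, 13-qB1-1517, 8-qC5-8200, 4-qB3-3994, 6-qF3-1063 and 2-qF1-2536. At 7-qD2-40, high since P10, the heterozygous libraries had 119 and 115 scaled CPM and the knockout libraries 116 and 127, so the genotypes overlapped. They overlapped at 8-qC5-8200 too, with 94.3 and 61.3 against 63.1 and 31.7. The 13-qB1-1517 libraries had 91.1 and 72.8 against 67.4 and 41.6, and although these did not overlap, the locus did not pass. Knockout replicate 2 was the lowest library at 8-qC5-8200 and 13-qB1-1517.

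The P14 count rested on single libraries. It was 2 without heterozygous replicate 1, 3 without knockout replicate 2, 13 without heterozygous replicate 2 and 21 without knockout replicate 1. With all P14 libraries, 6 of 13 markers of late pachytene spermatocytes were lower in knockouts (*Fabp9*, *Hspa2*, *Ldhc*, *Piwil1*, *Spag6* and *Tcp11*). The list's median log2 change was -1.09, and the summed level was 1191 to 1540 in heterozygous and 647 to 905 in knockout libraries. Of 19 meiotic prophase markers 0 passed, with sums of 3061 to 3340 and 2549 to 2921. Adipose markers were higher in knockouts at *Adipoq*, *Fabp4* and *Car3* (3 of 4 tested, of 7 on the list), with sums of 8.48 to 9.66 and 14.3 to 71.3, and *Cidec* was at 0 in both heterozygous libraries. The part of these lists in the lower locus RNA was not tested. In whole testes fewer cells of a type and less RNA per cell cannot be told apart.

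At P28 the share of loci called higher was near that of all features, and the share called lower was below it. Of 47 loci 10 were higher and 3 lower, against 25.7% and 25.1% of all features. The median log2 change was 0.15, against 0.12 over all features. With total counts as library sizes 22 were higher (46.7% of all features) and 2 lower (18.5%). With DESeq2's size factors in edgeR 8 were higher (16.0%) and 4 lower (28.9%). Relative to all features the median was 0.03 under each of these scalings. All 52 other intergenic loci were lower at this age. The retained loci took 0.276% and 0.257% of counts in heterozygous and 0.369% and 0.368% in knockout libraries.

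The clearest loss at P28 was at 2-qE5-4, with 112 and 97.3 scaled CPM in heterozygous and 31.2 and 30.8 in knockout libraries, a fall of 1.76 ± 0.16 on the log2 scale (adjusted p = 1e-08). Its genotypes had overlapped at P10, P14 and P18. The other locus high at P10, 7-qD2-40, went the opposite way, with 40.4 and 41.6 against 69.4 and 66.7 (log2 change 0.73 ± 0.10, adjusted p = 4.5e-06). At 10-qA3-2592 the libraries had 118 and 112 against 291 and 301 (1.36 ± 0.21, adjusted p = 1.8e-05). The knockout libraries were above both heterozygous ones at these last 2 loci. The same held at 8-qC5-2209, with 78.6 and 73.0 against 159 and 161 (1.07 ± 0.20, adjusted p = 0.00014). It held at 9-qA1-178, with 39.7 and 36.5 against 72.0 and 74.9 (0.95 ± 0.16, adjusted p = 8e-05). It held at 4-qD2.2-349 as well, with 45.7 and 40.7 against 79.7 and 72.9 (0.82 ± 0.18, adjusted p = 0.00089). The other higher loci were 1-qD-4525, 10-qA3-143, 7-qF3-3125, 8-qE1-3748 and 6-qC3-6258, with log2 changes of 0.54 to 1.20. Besides 2-qE5-4, 6-qF3-3040 (-0.63 ± 0.16) and 2-qG3-1029 (-0.53 ± 0.21) were lower.

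Markers of testis cell types moved with genotype at P28. Of 13 round spermatid markers 12 were lower and 1 higher (*Tex101*), with summed levels of 3496 to 3581 in heterozygous and 1458 to 1485 in knockout libraries. All 13 elongating spermatid markers were lower, with sums of 14903 to 16227 and 866 to 896, and *Prm2* and *H1fnt* were at 0 in both knockout libraries. Of 13 late pachytene markers 10 were lower. Of 12 spermatogonia markers 8 were higher and 1 lower, and of 12 Sertoli markers 10 were higher. Their part in the locus changes was not tested.

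The genotype effect itself differed between P14 and P28 at 24 loci (test of the interaction, adjusted p below 0.05). It was larger, that is less negative or more positive, at P28 for 23 loci, against 13.9% of all features, and smaller for 1, against 13.5%. In all 46 of 47 differences were above 0, with a median of 0.93 against 0.14 over all features. These signs come from the same libraries and are not independent of each other. With total counts the medians were 1.20 and 0.41, 32 loci were larger (35.6% of all features) and 1 was smaller (10.6%). Of the 11 loci lower at P14, 10 were among the 23, and 6-qF3-3040 was not. The difference subtracts the same P14 effect that called the 11, so this overlap is partly fixed in advance and supports nothing. The largest difference by its p was at 2-qE5-4, -1.80 ± 0.22 (adjusted p = 3.1e-06). At 7-qF3-3125 the change went from -1.15 ± 0.20 at P14 to 0.63 ± 0.17 at P28, a difference of 1.79 ± 0.26 (adjusted p = 3.6e-05). At 6-qC3-6258 it went from -1.22 ± 0.24 to 0.55 ± 0.21, a difference of 1.77 ± 0.32 (adjusted p = 0.00039). These 2 loci passed in opposite directions at the 2 ages. The count of larger effects was 15 without P14 heterozygous replicate 1 or knockout replicate 2 and at most 29 with another library left out.

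**Figure D3:**
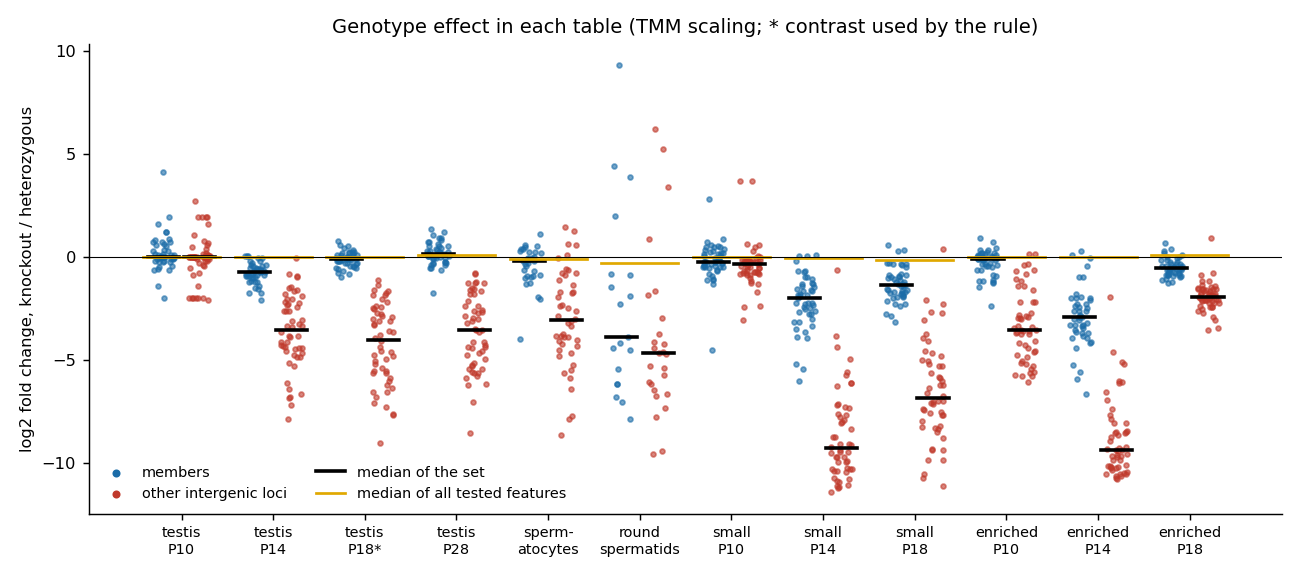
Fitted log2 fold changes of knockout against heterozygous libraries for the tested P18-retained loci and the other intergenic loci, 1 strip per comparison. Black bars are the medians of each set, yellow bars the median of all features tested, and the asterisk marks the P18 testis comparison that chose the loci. In whole testes at P14 and P28 and in spermatocytes the medians of the retained loci are -0.73, 0.15 and -0.20.

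In purified spermatocytes 32 of the 48 loci passed the low-count filter, 3 of them through heterozygous and 2 through knockout libraries alone, so counts and medians cover these 32 only. None was higher and 2 were lower, against 2.01% and 2.84% of all features, with a median of -0.20 against -0.11 over all 4618 features tested. Of 46 other intergenic loci tested 33 were lower and 1 higher. The retained loci took 0.863% to 1.07% of counts in heterozygous and 0.627% to 0.791% in knockout libraries.

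The larger change was at 13-qB1-1517, with 5924, 2347 and 649 scaled CPM in heterozygous and 168, 172 and 233 in knockout libraries, a fall of 3.96 ± 0.57 on the log2 scale (adjusted p = 0.00046). At 7-qF3-3125 the values were 577, 162 and 118 against 71.8, 81.4 and 54.8, a fall of 2.04 ± 0.50 (adjusted p = 0.027). The genotypes did not overlap at either locus, but the 3 heterozygous libraries differed widely. *Tssk1*, a kinase gene of spermatids, ran the same way, with 283, 145 and 33.3 against 8.98, 2.91 and 16.4, and the summed round spermatid list was 299.9 to 516 in heterozygous and 137 to 195 in knockout libraries. *Fhl5*, *Spaca4*, *Catsper3* and *Actl7a* of that list were at 0 in every knockout library. The heterozygous libraries were low as well at *Fhl5* (4.49, 0 and 0), *Catsper3* (6.73, 3.45 and 1.96) and *Actl7a* (11.2, 10.3 and 1.96). *Acrv1* of the same list overlapped between genotypes, with 6.73, 17.2 and 7.84 against 6.73, 20.4 and 2.74. The part of spermatids in both locus changes was not tested. Without knockout replicate 2 neither locus passed, with adjusted p = 0.086 at 13-qB1-1517 and 0.20 at 7-qF3-3125. Without heterozygous replicate 1 the change at 7-qF3-3125 was -0.91 (adjusted p = 0.15).

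The rest of the tested loci did not pass, which does not show equal levels. For 9-qF4-150 the heterozygous spermatocyte libraries had 2461, 3723 and 2809 scaled CPM and the knockout libraries 3630, 4754 and 4134 (log2 change 0.48 ± 0.26, adjusted p = 0.36). The genotypes overlapped there. In whole testes the same locus was between 1.16 and 17.9 in every library. These tables were normalized separately, and the library kits differed between testes and purified cells, which cannot be told apart from the cells. The 2-qF1-2536 libraries had 296, 400 and 629 against 283, 471 and 592, and 6-qC3-6258 had 267, 345 and 566 against 444, 526 and 578. Both overlapped, and both had been lower in P14 knockout testes.

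In the libraries labelled round spermatids 19 of the 48 loci passed the filter, 2 of them with the needed counts in all libraries of both genotypes, 14 in heterozygous libraries alone and 3 in knockout libraries alone. Most thus passed through the genotype in which they were high, so a count of calls among them is a description and supports nothing. The adjusted p of a single locus given below is a description too. Of the 19, 4 were higher and 11 lower, against 19.6% and 18.4% of all features. The retained loci took 1.30% to 1.51% of counts in heterozygous and 0.221% to 0.280% in knockout libraries. Leaving out any 1 heterozygous library left 0 calls in either direction. Knockout replicate 2, the shallowest library at 0.194 M counts, had a count at 10 of the 48 loci.

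The lower loci were led by the following. At 13-qB1-1517 the heterozygous libraries had 10585, 13203 and 11422 scaled CPM and the knockout libraries 84.0, 0 and 402 (log2 change -6.17 ± 1.47, adjusted p = 0.014). At 3-qA2-617 they had 663, 857 and 874 against 11.6, 0 and 19.6 (-6.16 ± 0.87, adjusted p = 0.0057). At 8-qA4-155 they had 168, 226 and 179 against 2.90, 0 and 0 (-7.04 ± 1.0, adjusted p = 0.0057). No knockout library reached a heterozygous one at these loci. The same held at 5-qG2-2301, with 171, 192 and 112 against 2.90, 0 and 0, and at 10-qA3-2592, with 171, 229 and 280 against 17.4, 0 and 9.80. At 8-qE1-3748 all knockout libraries had 0, so it was at least 23.6-fold lower.

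The 4 loci that were higher in the knockout libraries were 7-qD2-40, 13-qA3.1-355, 9-qF4-150 and 6-qF3-3040. At 7-qD2-40, which was high in P10 testes, all heterozygous libraries had 0 and the knockout libraries 168, 311 and 199, so it was at least 86.7-fold higher. At 13-qA3.1-355 the values were 8.75, 14.1 and 23.4 against 78.2, 336 and 588 (log2 change 4.41 ± 0.89, adjusted p = 0.0087). At 9-qF4-150 they were 256, 365 and 353 against 1819, 970 and 1085 (1.99 ± 0.45, adjusted p = 0.012). The genotypes did not overlap at these loci. Without knockout replicate 1 there were 2 loci called higher in place of 4.

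**Figure D4:**
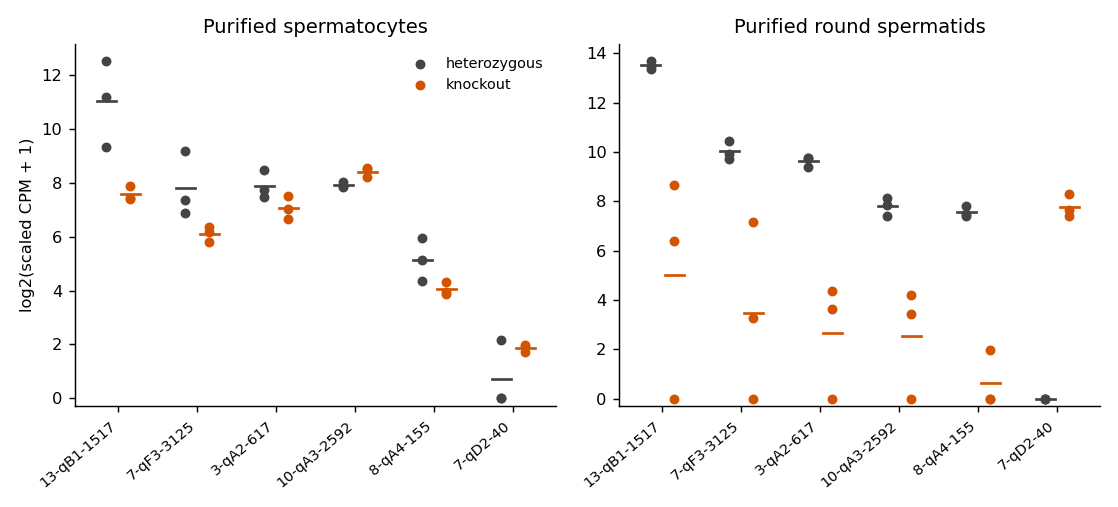
Levels of 6 P18-retained loci in purified spermatocytes and in libraries labelled round spermatids, as log2 of scaled CPM plus 1 per library (points) with group means (bars), for heterozygous and knockout animals. At 13-qB1-1517 the knockout libraries lie below the heterozygous ones in both cell types, and at 7-qD2-40 the heterozygous round spermatid libraries are all at 0.

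The labelled cell type was checked by its markers. In the knockout libraries labelled round spermatids 9 of 12 tested round spermatid markers were lower, with sums of 2029 to 2875 in heterozygous and 385 to 471 in knockout libraries, and *Fhl5* and *Spaca4* were at 0 in all 3. Of 13 elongating spermatid markers 11 were lower. Of 9 tested spermatogonia markers 8 were higher and 1 (*Gfra1*) was lower. *Zbtb16* and *Stra8*, which mark spermatogonia, were at 0 in the 3 heterozygous libraries and at 121 to 229 and 108 to 327 in the knockout ones. The genotype and the cells captured cannot be told apart in these libraries.

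Small RNA over most P18-retained loci also rose with age. Between P10 and P14 in heterozygous testes 42 of 47 loci rose, against 17.3% of all features, and 2 fell, 7-qD2-40 and 2-qE5-4, against 9.91%. The median log2 change was 7.71, against 0.06 over all 10405 features tested. With total counts 41 rose (6.08% of all features) and 0 fell (6.92%), and with libraries scaled to their miRNA counts 42 rose (21.9%) and 0 fell (2.35%). The 13-qB1-1517 libraries had 33.5 and 41.4 scaled CPM at P10 and 1202 and 7540 at P14, a log2 change of 6.87 ± 0.79 (adjusted p = 8.8e-06). At 7-qD2-40 they had 1246 and 1418 at P10 and 728 and 404 at P14. Neither locus overlapped between the ages. From P14 to P18 0 loci passed edgeR's test in either direction (1.21% and 1.62% of all features). At an unadjusted p under 0.05 there were 14, and DESeq2 called 2 lower. Without P14 heterozygous replicate 2 this comparison called 44 higher and 2 lower.

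In piRNA-enriched small RNA 46 of the 48 loci were tested. From P10 to P14 40 rose, against 6.74% of all features, and 0 fell, against 0.132%. With total counts 20 rose (0.56% of all features). At 6-qC3-6258 the P10 heterozygous libraries had 14.4 and 162 scaled CPM and the P14 libraries 3481 and 38316 (log2 change 7.89 ± 1.68, adjusted p = 0.0074). The P10 and P14 libraries did not overlap, but the 2 P10 libraries differed widely, as they did in their share on the other intergenic loci. From P14 to P18 1 locus rose (13-qA5-156), against 4.8% of all features, and 1 fell (2-qE5-4), against 8.52%. At 2-qE5-4 the libraries had 615 and 366 at P14 and 140 and 181 at P18, a fall of 1.61 ± 0.38 (adjusted p = 0.015).

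**Figure D5:**
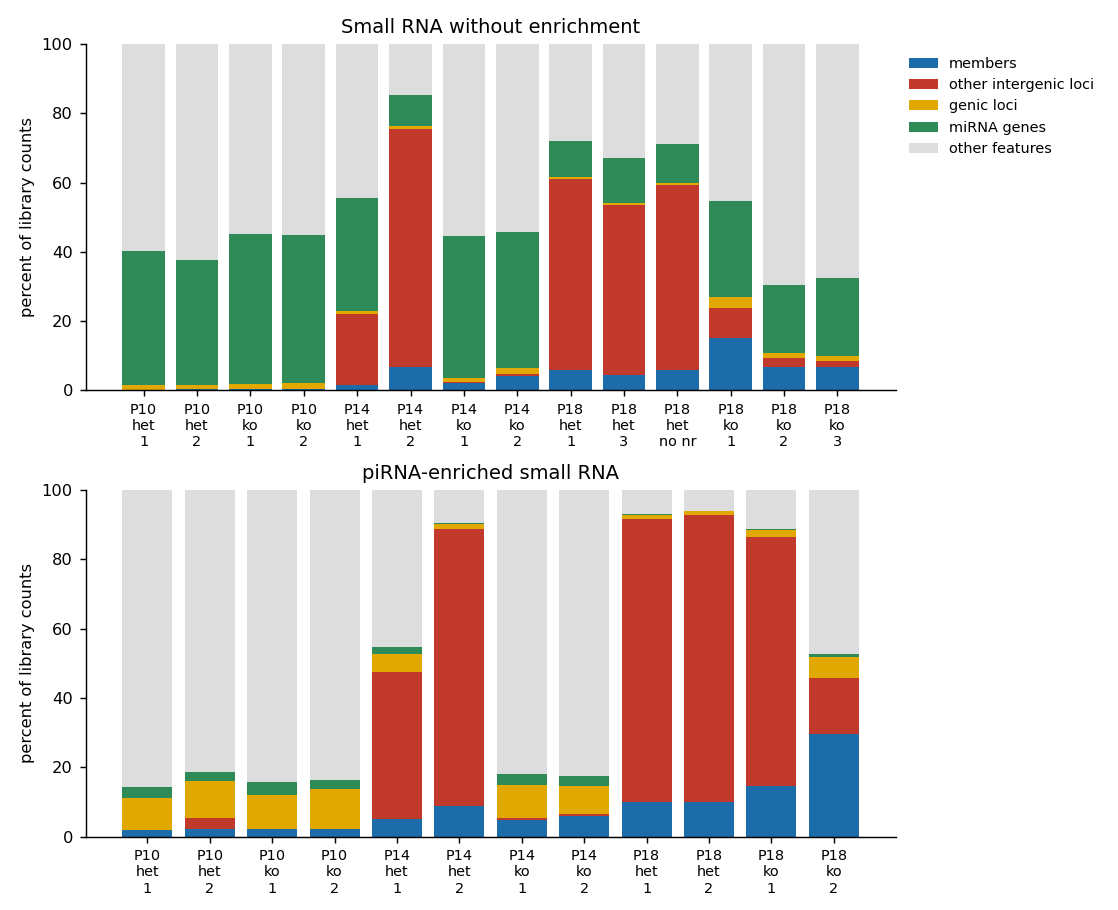
Share of each small RNA library's counts on the P18-retained loci, the other intergenic loci, genic loci, miRNA genes and all other features, as stacked bars in percent, for libraries without and with piRNA enrichment. The other intergenic loci take 20.5% and 68.8% in the 2 P14 heterozygous libraries without enrichment and 0.213% and 0.585% in the knockout ones.

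No retained locus was called between genotypes at P10 in small RNA. In the 2 kinds of small RNA library 0 of the retained loci passed edgeR's test, 0 reached an unadjusted p under 0.05 and DESeq2 called 0. Of all features 0.0% were called in either direction. With enrichment this comparison held heterozygous replicate 2, which stood apart by its share on the other intergenic loci.

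At P14 5 of the 47 loci were lower in knockouts without enrichment and 0 were higher, against 0.923% and 1.37% of all features. In piRNA-enriched small RNA 5 of 46 were lower and 0 higher, against 0.319% and 0.0%. The 5 were 9-qF4-150, 8-qA4-155, 13-qA3.1-355, 13-qA3.1-213 and 19-qC2-1361 in both tables. None of them was among the 11 loci with lower testis RNA at that age. Their P14 testis levels were at most 4.88 scaled CPM, so nothing is read from that. In testis RNA both knockout libraries lay below both heterozygous ones at 9-qF4-150, 13-qA3.1-213 and 19-qC2-1361. The genotypes overlapped at 8-qA4-155 and 13-qA3.1-355. The medians were -1.97 without and -2.92 with enrichment, against -0.05 and 0.00 over all features. Of the other intergenic loci 50 of 52 were lower without and 24 of 52 with enrichment.

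These values rest on 2 heterozygous libraries that differ widely. At 13-qA3.1-355 the heterozygous libraries without enrichment had 3.83 and 380 scaled CPM and the knockout libraries 3.07 and 7.13 (log2 change -5.21 ± 1.18, adjusted p = 0.023), so the genotypes overlapped. With enrichment they had 26.7 and 779 against 4.69 and 8.74 (-5.90 ± 1.06, adjusted p = 0.025) and did not overlap. At 9-qF4-150 the values were 14.0 and 281 against 9.56 and 10.7 without enrichment (-3.86 ± 0.81, adjusted p = 0.014). With enrichment they were 70.9 and 538 against 8.82 and 7.42 (-5.22 ± 0.75, adjusted p = 0.0062). At this locus the genotypes did not overlap in either table. At 6-qC3-6258 the libraries without enrichment had 1031 and 14489 against 937 and 1599, and there the genotypes overlapped and the locus did not pass.

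Without heterozygous replicate 2, the library with more intergenic counts, small RNA without enrichment had 0 lower (0.798% of all features) and 10 higher (4.87%) at P14, and with enrichment 1 was lower (0.129%) and 0 higher (0.0%). Without heterozygous replicate 1 there were 41 lower (4.44%) and 0 higher (2.22%) without enrichment, and 37 lower (7.0%) and 0 higher (1.43%) with it. With either knockout library left out 0 were called in both. The replicate block left 0 lower without enrichment and 4 with it, and a fit of only the libraries compared left 0 in both. With libraries scaled to miRNA the first table called 0, and with total counts the second called 0.

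At P18 the direction of small RNA depended on how libraries were scaled. With TMM 17 of 47 loci were lower and 0 higher (17.7% and 20.1% of all features), with a median of -1.34. With total counts 1 was lower and 20 higher (0.654% and 80.6%), with a median of 0.94, and with miRNA scaling 1 was lower and 4 higher (1.07% and 50.7%), with a median of -0.17. Relative to the median of all features the loci stood at -1.20, -1.09 and -1.18. As a share of all counts the retained loci took 5.95%, 4.55% and 5.77% in heterozygous and 15.1%, 6.65% and 6.63% in knockout libraries, where the other intergenic loci had 8.86%, 2.71% and 1.87%. Of those 52 loci 51 were lower with TMM.

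The 9-qF4-150 libraries had 376, 286 and 370 scaled CPM in heterozygous and 48.4, 41.0 and 25.4 in knockout testes at P18 (log2 change -3.17 ± 0.63, adjusted p = 0.0008). The genotypes did not overlap, and this locus was lower under every scaling tried. At 13-qA3.1-213 the values were 282, 207 and 308 against 73.0, 52.1 and 38.5 (-2.28 ± 0.57, adjusted p = 0.0046), without overlap, while total counts gave 0.0105. All 5 loci lower at P14 were among the 17. By counts, not per length, the retained loci highest in heterozygous piRNA-enriched libraries at P18 were 8-qC5-8200, 6-qC3-6258, 7-qB5-6255, 13-qB1-1517 and 8-qE1-3748. Of these 8-qC5-8200 was among the 17, with 32221, 25355 and 34460 against 9328, 7609 and 6905 (-1.95 ± 0.61, adjusted p = 0.018). The genotypes did not overlap there. Its log2 change was the only one of the 5 to pass.

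In piRNA-enriched small RNA at P18 none of the 46 loci passed edgeR's test (8.8% of all features were higher and 1.05% lower). At an unadjusted p under 0.05 there were 0, and DESeq2 called 0. The median was -0.53 with TMM, 1.27 with total counts and 0.01 with miRNA scaling, against 0.08, 2.06 and 0.66 over all features. At 8-qC5-8200 the heterozygous libraries had 104668 and 108824 scaled CPM, the library labelled knockout replicate 1 had 79871 and knockout replicate 2 had 35606. Both knockout libraries were lower, and replicate 1 was nearer to the heterozygous ones. Of the other intergenic loci 1 of 52 was lower in this comparison, and *Btbd18* had 395 counts in the library labelled knockout replicate 1, the most of the 12 libraries.

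The difference of the genotype effect between P14 and P18 passed at 0 retained loci in either small RNA table (0.0384% and 0.0384% of all features higher and lower without enrichment, 0.00778% and 0.00778% with it). Unadjusted p was below 0.05 at 2 and 19 loci, and DESeq2 called 0 and 5. Over the 47 loci the P14 log2 change of testis RNA and that of small RNA had a Pearson r of 0.34 and a Spearman rho of 0.31, a description across loci whose libraries differ in depth.

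The spread of the retained loci over bands was read from their names and was not tested. The 100 intergenic loci fell in 53 bands, of which 28 held several loci. In 8 of the 28 every locus was retained (21 loci), in 11 none was, and in 9 both kinds occurred (11 retained loci). The other 16 were alone in their band. The retained loci were on 15 of the 18 chromosomes with intergenic loci, and all 8 on chromosome 13 were retained, including the 5 of band 13-qA5. On chromosome 14 none of 6 was, and on chromosomes 12 and 18 none of 2 each. Chromosomes 3 and 19 had all their loci retained as well, 2 and 1. A band says nothing of the distance between loci, and the ratios below are the P18 ones that chose them.

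In band 7-qD2 the retained 7-qD2-40 had a P18 log2 ratio of 0.14, and 7-qD2-11976 and 7-qD2-24830 had -5.60 and -5.49. In 6-qF3, the retained 6-qF3-1063 and 6-qF3-3040 had -0.07 and -0.72, and 6-qF3-8009 and 6-qF3-28913 had -6.58 and -5.87. In 11-qE1, 11-qE1-252 and 11-qE1-3997 had -0.15 and -0.02, and 11-qE1-9443 had -4.93. So loci of 1 band stood on both sides, by a wide margin in these 3 bands. In 15-qE1 the retained 15-qE1-3710 had -0.06 beside -3.68 and -2.44 at 15-qE1-1119 and 15-qE1-8387. In 4-qD2.2 and 8-qA4 the margin was narrower, with -0.01 at 4-qD2.2-349 beside -1.07 at 4-qD2.2-2182, and -0.37 at 8-qA4-155 beside -1.62 at 8-qA4-332. In 17-qC the retained 17-qC-935 had few counts, at 3.36 and 3.77 CPM of total counts, and a ratio of 0.16 beside -1.76 at 17-qC-59.

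Genes of the piRNA pathway were read in the same testes. *Mybl1* and *Tcfl5*, transcription factors of pachytene piRNA loci, did not pass in any testis or purified-cell comparison of genotypes that tested them, and *Mybl1* was not tested in round spermatids. At P14 *Mybl1* had 119 and 111 scaled CPM in heterozygous and 96.8 and 84.2 in knockout libraries (log2 change -0.35 ± 0.19, adjusted p = 0.59). *Tcfl5* had 139 and 128 against 109 and 91.4 (-0.41 ± 0.16, adjusted p = 0.38). Neither overlapped between the genotypes, but with 2 libraries per genotype and no passed test nothing is read from that. Of 3 PIWI protein genes 1 was lower at P14, *Piwil1*, the PIWI partner of pachytene piRNAs, at 295 and 207 against 138 and 98.9 (-1.09 ± 0.18, adjusted p = 0.0029).

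Of 13 biogenesis genes 0 passed at P10, P14 and P18. At P28 *Fkbp6* and *Mov10l1* were higher and *Gtsf1* and *Mael* lower. *Gtsf1*, a PIWI cofactor, fell most, with 255 and 269 against 96.7 and 103 (-1.39 ± 0.12). Of 8 Tudor and granule protein genes 1 was lower at P14, *Tdrd6*, at 35.5 and 27.7 against 11.8 and 6.01 (-1.86 ± 0.28), and 3 at P28, *Ddx25*, *Tdrd6* and *Tdrd7*. In spermatocytes 0 genes of these 4 lists passed. In the libraries labelled round spermatids *Piwil2*, *Asz1*, *Gpat2*, *Mov10l1* and *Tdrd1* were higher in knockouts and *Gtsf1*, *Mael*, *Tdrd6* and *Ddx25* lower. *Tdrd1*, a Tudor protein gene, had 13.1, 8.48 and 20.8 scaled CPM in heterozygous and 333, 108 and 245 in knockout libraries (3.98 ± 0.73, adjusted p = 0.0081), beside the higher spermatogonia markers there. The P14 calls of *Piwil1* and *Tdrd6* stand beside the lower late pachytene markers, which hold *Piwil1*, and the P28 calls beside the lower spermatid markers.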

How the data were processed

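The 5 deposited tables hold the authors' raw counts of reads over genes and piRNA loci, with no normalization, for 58 RNA libraries of the series' 86 samples. The 28 ChIP-seq and ATAC-seq samples were not analysed here. The submitters' processing notes name TopHat2 2.1, cutadapt 1.8.1, Subread 1.4.6-p3 (featureCounts) and Cufflinks for RNA-seq. For small RNA they name featureCounts and TopHat. The build in both is mm10. The annotation and the settings for strand and for reads with several matches are not given in the sources used here. So reads shared by repeated loci could be split or dropped. A column of the small RNA table named for a P18 heterozygous library matched no title and was used as an unnumbered library of that group.

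Groups came from the labels. Each table was fitted in 1 model over all its libraries with edgeR 4.0.16 in R 4.3.3: low-count filter by group, TMM scaling, quasi-likelihood test, Benjamini-Hochberg adjustment over all features tested, threshold 0.05. The test was tried on counts simulated from each table's fitted spread. These held no libraries that stand apart from their group, so the trial says nothing of such groups. The SE given with a log2 change is its absolute value over the square root of the test's F statistic. It is thus derived from the test and is no separate estimate of spread. Tables were normalized separately and no test was made across them. Replicate numbers were not taken as pairs, since no comparison had 3 numbered pairs that all deviated together. Alternatives were DESeq2's size factors in edgeR, total counts, miRNA counts, DESeq2 1.42.0, no low-count filter, only the libraries compared, a replicate block and each library left out. Leaving out libraries in the comparisons of ages and in the interactions was added after the data were seen. Named loci were the 8 highest in P14 heterozygous testes, up to 6 with the smallest p among those called per comparison, the 3 on each side of the rule's threshold, the 5 highest in P18 heterozygous piRNA-enriched libraries, and those sharing a band with a locus under the threshold. Other loci named were chosen after their values were seen. The loci, the marker and pathway lists and the naming rule were chosen with earlier results of these data known.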

Additional observations from a re-analysis of the deposited data

Results flagged for a closer look

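The genotype effect differed between P14 and P28 by the interaction test at 24 P18-retained loci. Named among them were 2-qE5-4 with a difference of -1.80, 7-qF3-3125 with 1.79, 10-qA3-2592 with 1.81, 8-qC5-2209 with 1.70, 6-qC3-6258 with 1.77 and 3-qA3-2052 with 1.26 on the log2 scale. A difference above 0 means a less negative or more positive effect at P28. Groups had 2 libraries per genotype and age, and the 2 P28 libraries of each genotype were the most alike of any replicates.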

How the results depend on the processing

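The rule kept 47 to 49 loci with any P18 library left out, 43 with a threshold of -0.5, and 48 with TMM-scaled CPM, a pseudocount of 1 or the named loci kept. Of the counts of called loci recomputed under the alternatives, 368 stayed within 1.5 times of the reported one and 92 did not. Of the values of named loci 367 kept direction and call, 91 kept direction and lost the call, and 8 reversed. The causes were not tested.

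In testes, the 11 loci lower at P14 were 17 with DESeq2, 21 with no low-count filter, 4 with only the libraries compared, and 2 to 21 with a library left out. At P28 total counts called 22 higher, and the fit of only the libraries compared 16 higher and 11 lower. From P14 to P28 in heterozygous testes total counts called 2 lower. The interaction called 15 to 29 larger effects with a library left out. In spermatocytes 0 to 3 were lower with a library left out. In spermatids 0 to 4 were higher and 0 to 15 lower with a library left out, and 2 were higher with DESeq2's size factors in edgeR or with no filter.

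In small RNA without enrichment at P14, 0 were lower with miRNA scaling and with only the libraries compared, 18 with DESeq2 and 27 with no filter. With a library left out 0 to 41 were lower and 0 to 10 higher. At P18 total counts called 20 higher and 1 lower, miRNA scaling 4 higher and 1 lower, no filter 27 lower, and only the libraries compared 39 lower. With a library left out 6 to 16 were lower, 8 without the unnumbered one, 7 without knockout replicate 2 and 6 without knockout replicate 3. From P10 to P14 0 fell with total counts, miRNA scaling or no filter, and 0 to 2 with a library left out. From P14 to P18 no filter called 22 higher, total counts 3 lower, and miRNA scaling and DESeq2 2 lower each. There a library left out gave 0 to 44 higher and 0 to 2 lower. The interaction called 4 higher with total counts or no filter, 3 with miRNA scaling, and 0 to 32 higher and 0 to 29 lower with a library left out.

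In piRNA-enriched small RNA at P14, 0 were lower with total counts and with only the libraries compared, 19 with DESeq2, 34 with no filter, and 0 to 37 with a library left out. At P18 total counts called 2 higher and no filter 1 lower. From P10 to P14 total counts called 20 higher. From P14 to P18 DESeq2's size factors in edgeR called 3 higher, total counts 0 higher and 2 lower, miRNA scaling 0 higher, DESeq2 8 higher and 2 lower, and no filter 29 higher. There a library left out gave 0 to 39 higher and 0 to 1 lower. The interaction called 7 higher with miRNA scaling, 5 with DESeq2, 13 with no filter and 0 to 24 with a library left out.

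Without P14 heterozygous replicate 2 the small RNA changes at P14 reversed at 8-qA4-155 (-6.89 to 0.36 with a library left out), 13-qA3.1-355 (-6.10 to 0.47) and 19-qC2-1361 (-6.35 to 0.92). With total counts those at P18 reversed at 13-qA3.1-213 (0.0105), 4-qD3-2082 (0.55), 17-qC-935 (0.57), 4-qB3-639 (0.65) and 10-qA3-143 (0.39).

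The labels give libraries with the same replicate number nothing else in common. With 3 pairs, the deviations of same-numbered libraries correlated at 0.05 to 0.07 at P10, -0.29 to -0.13 at P18, -0.02 to 0.26 in spermatocytes and -0.01 to 0.01 in spermatids. With 2 pairs, which cannot settle the pairing, they correlated at 0.36 at P14 and 0.13 and 0.22 at P18 in small RNA, 0.21 at P14 and 0.06 at P18 with enrichment, 0.00 at P10 in both, and 0.08 and 0.04 in P14 and P28 testes. With the replicate block 13 loci were lower at P14 in testes, 12 higher and 3 lower at P28, 4 lower in spermatocytes, 2 higher and 3 lower in spermatids, and in small RNA 0 lower at P14 and 14 at P18 without enrichment and 4 lower at P14 with it. Depth limits the purified cells most, where 16 and 29 of the 48 loci were not tested.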
